A study of Mus musculus with 3 samples.

Results

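Pericytes of the mouse ventricle were taken from droplet-based (10x) gene expression libraries of 3 groups. They are the barcodes with at least 5 unique molecular identifiers (UMIs) summed over the 7 marker genes Abcc9, Rgs5, Pdgfrb, Kcnj8, Vtn, Notch3 and Cspg4. This sum also had to be at least 2 times the UMIs summed over Pdgfra, Dcn, Ptprb, Csf1r, Mrc1 and Myh11, which mark other cells, and Ttn had to take under 1% of the barcode's UMIs. The rule found 1385 pericytes among 18021 barcodes, with 530 of 6856 in the TAC+ART library, 420 of 7413 in the TAC library and 435 of 3752 in the Sham library. The members were thus chosen by the measured UMIs of these genes, and the levels of these genes are given as a description only.

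All groups were C57B6 mice whose ventricular tissue was stored frozen before use. TAC+ART mice had transverse aortic constriction, a ligature that narrows the aorta and loads the left ventricle with pressure, and were given artesunate, an antimalarial derivative of artemisinin. TAC mice had the constriction and the vehicle, and Sham mice had the vehicle without the constriction. Each library was made from tissue of 3 hearts pooled before sequencing, so there is 1 library per group, no spread between hearts can be measured and no test between groups was possible. The sources used here give neither the age of the mice nor whether the droplets took in cells or nuclei. Intervals are 95% intervals for counting error alone (exact Poisson for levels, exact Clopper-Pearson for shares, exact binomial for ratios of levels). Those for ratios of shares are approximate, from a normal approximation on the log scale with a delta-method standard error. All differences below are between these libraries.

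Pericytes sit in the basement membrane of capillaries, in contact with the endothelium through PDGF-B and its receptor Pdgfrb, and Notch3 keeps their identity. In the heart they carry an ATP-sensitive potassium channel made of Kcnj8 and Abcc9, respond to endothelin, angiotensin and nitric oxide, and set capillary tone and permeability. After injury or pressure overload pericytes are studied as a possible source of matrix and of inflammatory signals.

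The libraries held 33364667, 37658150 and 17710689 UMIs in TAC+ART, TAC and Sham. The median pericyte had 4596 UMIs in TAC+ART, 5030.5 in TAC and 4273 in Sham, and pericytes summed to 2634852, 2218532 and 2024428 UMIs in the same order. Mitochondrial genes took 0.794%, 0.964% and 0.723% of the pericyte UMIs in that order, and ribosomal protein genes took 0.869%, 1.01% and 0.546%. Of the barcode sequences, 27 occurred in both TAC+ART and TAC, 20 in both TAC+ART and Sham, and 20 in both TAC and Sham; 1 of these was a pericyte in both TAC and Sham.

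The median pericyte had 41.5 marker UMIs in TAC+ART, 45 in TAC and 43 in Sham, and 5 or more of the 7 markers were seen in 94.7%, 91.2% and 91.7% of members in that order. Barcodes just inside the minimum, with 5 to 6 marker UMIs, numbered 1, 4 and 2, and those just outside, with 3 to 4 marker UMIs and passing the other conditions, numbered 3, 5 and 18. A UMI of Rerg, Lin7a, Ano1 or Pde8b, 4 genes that were not in the rule but are among those picked below for a high level in these pericytes, was seen in 0 of 1, 1 of 4 and 1 of 2 barcodes just inside, in 0 of 3, 2 of 5 and 4 of 18 just outside, and in 97.5%, 96.9% and 97.7% of all members; the pick favours the last shares, which are a description.

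UMIs of genes that mark other cells differed between the pericytes of the 3 libraries. Dcn, a fibroblast proteoglycan gene on the excluding side of the rule, had 810 CPM (UMIs per 1000000 pericyte UMIs) in TAC+ART pericytes, 764 in TAC and 320 in Sham. Pericytes with no UMI of any of the 6 excluding genes made up 1.13% in TAC+ART, 0.952% in TAC and 18.6% in Sham. A further 369, 298 and 142 barcodes had 5 or more marker UMIs but failed the ratio of 2. The summed level of 7 macrophage markers in pericytes was 376 CPM in TAC+ART, 447 CPM in TAC and 143 CPM in Sham, against 8579 to 9682 CPM in barcodes of a macrophage gate. The 7 fibroblast markers together had 2517, 1890 and 1617 CPM in pericytes, and the 8 endothelial markers had 788, 651 and 706 CPM. All markers of these 3 lists had at least 1 UMI in the pericytes of every library. The 8 cardiomyocyte markers together had 4708, 5098 and 4419 CPM, and of 7 lymphocyte markers Cd3e, Cd3d and Ms4a1 had 0 to 3 UMIs in the pericytes of each library. Members with 5 or more UMIs of endothelial, macrophage or lymphocyte markers, which could be doublets, numbered 87 in TAC+ART, 70 in TAC and 43 in Sham and were kept. They are the members with markers of other cells that an alternative below leaves out. Fibroblast and cardiomyocyte markers were not used there, and 96.2%, 87.6% and 65.7% of pericytes had 5 or more fibroblast marker UMIs.

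Levels of genes that the rule did not use are given next. Of a list of 32 pericyte genes outside the rule, 31 were at least as high in pericytes as in the other barcodes of TAC and of Sham; the exception was Colec12, a scavenger receptor. Among genes with at least 50 CPM in the pericytes of each library, 15 were picked for the highest ratio to all other barcodes in their least favourable library, and 13 of them are given here. That they were higher in pericytes than elsewhere follows from this pick, and their values are a description. Rerg, a Ras-like growth inhibitor, had 1029 CPM in TAC+ART pericytes, 1132 CPM in TAC and 895 CPM in Sham, against 8.10, 5.56 and 4.84 CPM in the other barcodes of the same libraries. Ano1, the calcium-activated chloride channel that depolarises mural cells, had 1051, 1034 and 1309.5 CPM in pericytes. Pde8b, a cyclic AMP phosphodiesterase, had 1249, 1609.6 and 1312 CPM, and Lin7a, a scaffold protein of cell polarity, had 866, 696 and 691 CPM. Several are best known from neurons: Mdga2, a membrane-anchored adhesion gene, had 2028, 1336 and 2325 CPM in pericytes against 30.3, 17.7 and 34.7 CPM in other barcodes, and Lrrc4c, Lrfn2 and Sorcs1 were picked too. The remaining 5 were Zfp804b, Iqsec3, Slc4a8, Zmat4 and 5330439B14Rik. The last of these lies on the opposite strand of Abcc9, and whether counting used strand is not stated, so its reads and those of Abcc9 may not be separable.

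**Figure D1:**
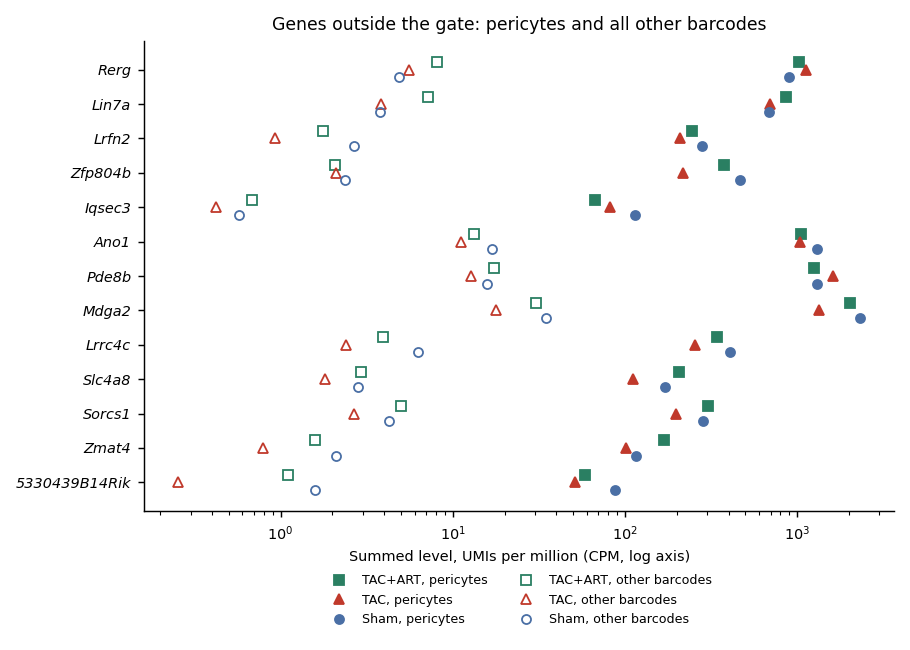
Levels of 13 identity genes in pericytes (filled symbols) and in all other barcodes (open symbols) of the TAC+ART, TAC and Sham libraries, in CPM on a log axis. For every gene the filled symbols of the 3 libraries lie to the right of the open ones, as the pick requires, for example Rerg at 1029, 1132 and 895 CPM against 8.10, 5.56 and 4.84 CPM.

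Smooth muscle cells share several of the marker genes and were kept apart by Myh11, the smooth muscle myosin heavy chain. Myh11 had 61.5 CPM in TAC+ART pericytes, 55.0 CPM in TAC and 51.4 CPM in Sham, against 3664, 4095 and 2826 CPM in barcodes of a smooth muscle gate, which held only 18, 18 and 17 barcodes. The 6 smooth muscle markers together had 148, 128 and 134 CPM in pericytes, and the contractile protein gene Cnn1 had 0 to 3 UMIs. Of the pericytes, 2, 1 and 4 also met the smooth muscle gate.

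The marker genes of the rule had similar levels in the 3 libraries. Abcc9, the sulphonylurea receptor subunit of the potassium channel, had 3916 CPM in TAC+ART pericytes, 3789 CPM in TAC and 4242 CPM in Sham. Its pore-forming partner Kcnj8 had 597, 529.6 and 576 CPM. Rgs5, a regulator of G protein signalling, had 1418, 1688 and 1461 CPM. Pdgfrb had 1369, 1208 and 1487 CPM, Notch3 had 1370.5, 1265 and 1498 CPM, and Cspg4, the NG2 proteoglycan, had 414, 326 and 472 CPM. Vtn, which encodes vitronectin, had 183, 187 and 169.9 CPM. No marker gene differed by 2-fold between any pair of libraries, and nothing is read from these levels because they chose the members.

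Pericytes were a smaller share of the barcodes in TAC than in Sham, with TAC+ART between them. The share was 7.73% (7.11 to 8.39) in TAC+ART, 5.67% (5.15 to 6.22) in TAC and 11.6% (10.6 to 12.7) in Sham. The log2 ratio of shares was -1.03 (-1.22 to -0.85) in TAC against Sham, 0.45 (0.27 to 0.63) in TAC+ART against TAC and -0.58 (-0.76 to -0.41) in TAC+ART against Sham. With every barcode thinned to 2000 UMIs before the rule was applied, which left out 421, 508 and 225 shallower barcodes, the shares were 8.03% in TAC+ART, 5.82% in TAC and 11.7% in Sham. A share falls when other cells become more frequent as well as when pericytes become fewer, and these cannot be told apart here: the macrophage gate held 961, 1226 and 351 barcodes and the fibroblast gate 2355, 2336 and 1079. Dcn, which counts against a barcode in the rule, had 810 CPM in TAC+ART pericytes, 764 in TAC and 320 in Sham. The rule limits Dcn in its members, so these levels do not measure how many barcodes Dcn kept out. The part of Dcn in the shares was not tested.

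Between pericytes of the TAC and Sham libraries most genes differed by less than 2-fold. A gene was compared when it had at least 50 UMIs in both libraries together, with 0.5 UMIs added to each sum, and is called here when it differed by 2-fold or more, a rule of size and not a test. Of 9432 genes, 418 were higher in TAC (4.43%) and 174 lower (1.84%), with a median log2 ratio of -0.01 over all genes. Many of these calls were genes that were more abundant in the other barcodes of the library: among the 4407 genes at least as high in pericytes as in other barcodes of the library where they were higher, 69 were higher and 89 lower. Between TAC+ART and TAC, 9889 genes were compared, of which 121 were higher (1.22%) and 97 lower (0.981%), and 53 and 32 among the 4543 genes at least as high in pericytes. Between TAC+ART and Sham, 177 of 9743 genes were higher (1.82%) and 58 lower (0.595%), and 26 and 38 among the 4682. The pick of genes at least as high in pericytes depends on the direction of each ratio. The counts within that pick are therefore a description only. The TAC library stands in both of the first comparisons, so an unusual TAC value moves both ratios in opposite directions, and the values of all 3 libraries are therefore given side by side.

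**Figure D2:**
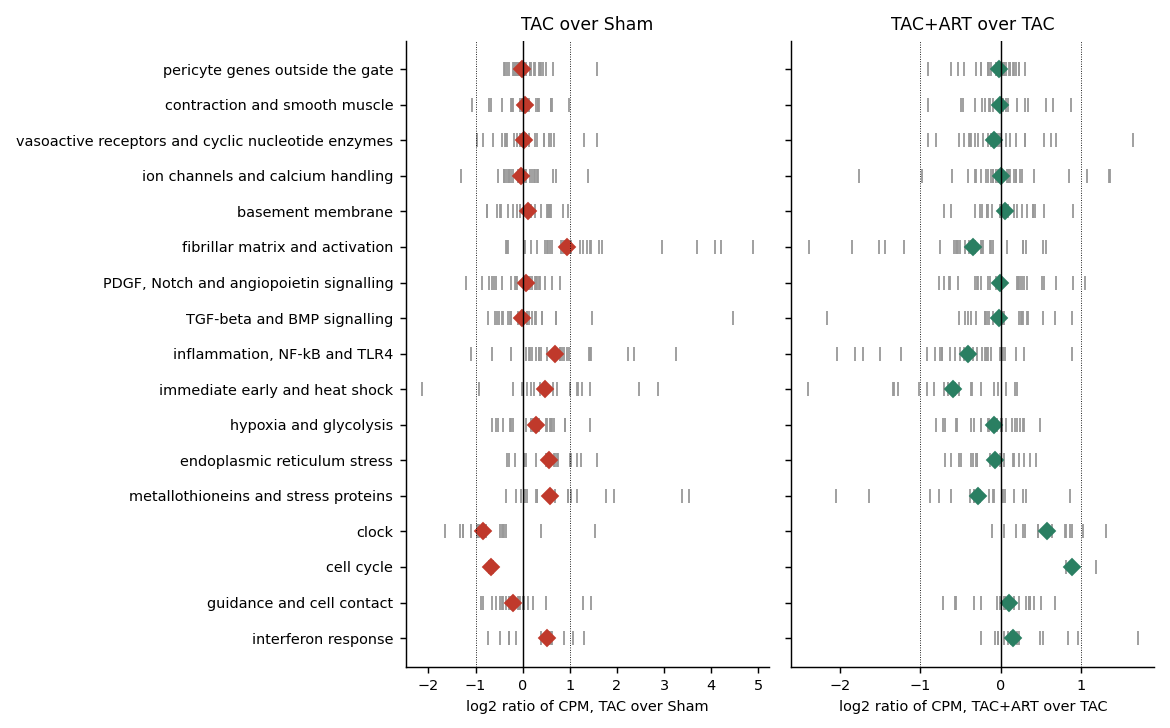
Log2 ratios of the members of 17 gene lists in pericytes, for TAC over Sham (left panel) and for TAC+ART over TAC (right panel); each tick is a gene with at least 50 UMIs in both libraries together, the diamond is the list's median, and dotted lines mark 2-fold. The medians of pericyte, contraction, vasoactive, ion channel and basement membrane genes lie near 0 in both panels, while the clock list has a median of -0.85 in TAC against Sham and 0.58 in TAC+ART against TAC.

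A list of 32 pericyte genes outside the rule had a median near 0, with members on both sides. All 32 were measured, the median log2 ratio of TAC over Sham was -0.01, and only Ednrb differed by 2-fold, being higher. Over all genes 4.43% were higher and 1.84% lower by that rule. The interval lay above 0 for 9 of the 32 and below 0 for 8. Gucy1b1, a subunit of the nitric oxide receptor guanylate cyclase, had 577 CPM in TAC+ART pericytes, 602 CPM in TAC and 605 CPM in Sham. Ebf1, a transcription factor of the mural lineage, had 5108, 5254 and 5313 CPM, and Dlc1, a GTPase-activating protein, had 8961, 8675 and 9719.8 CPM. For TAC+ART over TAC the median was -0.02 and none of the 32 differed by 2-fold, where 1.22% of all genes were higher and 0.981% lower. The interval lay above 0 for 5 of the 32 and below 0 for 7.

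Among receptors and cyclic nucleotide enzymes that set vascular tone, the gene that stood apart was Ednrb, the endothelin B receptor gene on chr14:103814625-103844402 (GRCm38, minus strand). It had 105 CPM in TAC+ART pericytes, 196 CPM in TAC and 65.2 CPM in Sham. The log2 ratio was 1.58 (1.30 to 1.88) in TAC against Sham and -0.90 (-1.12 to -0.68) in TAC+ART against TAC. In pericytes thinned to 1000 UMIs, an Ednrb UMI was seen in 10.0% in TAC+ART, 15.5% in TAC and 5.29% in Sham; before thinning these were 30.2%, 43.1% and 20.2%. Other cells carry this receptor as well: at the same thinned depth the share was 7.81%, 15.3% and 6.61% of the endothelial gate and 12.3%, 4.89% and 14.8% of the macrophage gate. The log2 ratio of TAC over Sham was 0.85 in the endothelial gate, 1.18 in the fibroblast gate and -1.48 in the macrophage gate.

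The receptor genes Ednra, S1pr3 and Agtr1a did not share that pattern. Ednra, the endothelin A receptor, had 566 CPM in TAC+ART pericytes, 539 CPM in TAC and 516 CPM in Sham, and the sphingosine receptor S1pr3 had 271, 274 and 269.7 CPM. Agtr1a, the angiotensin II receptor, had 112, 103 and 129.9 CPM. Of 37 genes in the list 27 were measured, with the interval of TAC over Sham above 0 for 9 and below 0 for 7. The median log2 ratio of TAC over Sham was 0.02, and 2 were higher by 2-fold (Ednrb and the phosphodiesterase Pde3b, at 39.9, 69.4 and 28.2 CPM) and 0 lower. By the same rule 4.43% of all genes were higher and 1.84% lower. Pde3b was higher in other barcodes than in pericytes, with 94.5, 303 and 74.3 CPM there, and its ratio of TAC over Sham was 0.40 without the members that had markers of other cells. Pde3a, its close relative, had 1002 CPM in TAC+ART pericytes, 1376 CPM in TAC and 1004 CPM in Sham, a log2 ratio of 0.46 (0.37 to 0.54) for TAC over Sham. For TAC+ART over TAC, where 1.22% of all genes were higher by 2-fold and 0.981% lower, the median of 28 genes was -0.08. The interval lay above 0 for 6 of the 28 and below 0 for 9. Only the adrenergic receptor Adra1a passed 2-fold, being higher, with 25 of its 46 TAC+ART UMIs in 1 barcode.

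Of the ion channels and calcium handling genes, Trpc6 (chr9:8544142-8680741, plus strand) was higher in TAC. This cation channel opens on diacylglycerol downstream of angiotensin and endothelin receptors. It had 50.1 CPM in TAC+ART pericytes, 99.2 CPM in TAC and 38.0 CPM in Sham, and only 1.59, 2.23 and 1.53 CPM in the other barcodes of those libraries. The log2 ratio was 1.38 (1.002 to 1.78) in TAC against Sham and -0.98 (-1.31 to -0.67) in TAC+ART against TAC. At 1000 UMIs per barcode, 3.77% of TAC+ART, 6.43% of TAC and 1.38% of Sham pericytes had a Trpc6 UMI, against 0.114%, 0.0465% and 0% of the endothelial gate; unthinned, 9.25%, 16.4% and 6.44% of pericytes had one. The small smooth muscle gate had 272, 408 and 194 CPM of Trpc6. In Sham, 18 of its 77 pericyte UMIs lay in 1 barcode.

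Other members of its family went other ways. Trpc1 had 123 CPM in TAC+ART pericytes, 104 CPM in TAC and 126 CPM in Sham, and Trpc4 had 20.1, 7.66 and 19.3 CPM, with log2 ratios of -1.31 (-2.24 to -0.47) in TAC against Sham and 1.36 (0.58 to 2.27) in TAC+ART against TAC. Trpc4 was nearly absent from other barcodes, with 0.651, 0.451 and 0.638 CPM. Without the members that had markers of other cells its ratio of TAC over Sham was -0.75, under 2-fold. Of 32 genes in the list, 27 were measured for TAC over Sham, with a median log2 ratio of -0.03, 1 higher and 1 lower by 2-fold. By the same rule 4.43% of all genes were higher and 1.84% lower. The median was -0.23 over the 18 list genes at least as high in pericytes as elsewhere in the library where each was higher. That pick depends on the direction of the ratio, so this median is a description only. Cacna1c, the L-type calcium channel, had 2089, 1926 and 2482 CPM. For TAC+ART over TAC, Trpc4, Kcnq5 and Kcna5 were higher by 2-fold and Piezo2 lower, of 30 measured with a median of 0.00. In that comparison 1.22% of all genes were higher and 0.981% lower. Kcna5 (1.08) was at 0.92 to 0.97 under 4 alternatives, among them a marker minimum of 3 and a gate ratio of 4, and Kcnq5 (1.35) was at 0.99 when each pericyte was weighted equally.

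Contractile genes had a median near 0, with members on both sides. Of 24 contraction and smooth muscle genes 20 were measured, with a median log2 ratio of 0.05 in TAC against Sham and -0.01 in TAC+ART against TAC. In TAC against Sham the interval lay above 0 for 4 of the 20 and below 0 for 5. In that comparison 4.43% of all genes were higher by 2-fold and 1.84% lower. Mylk, the myosin light chain kinase, had 259 CPM in TAC+ART pericytes, 224 CPM in TAC and 261 CPM in Sham, and Cald1, caldesmon, had 1079, 1341 and 1073 CPM. Acta2, smooth muscle actin, had 23.2, 24.8 and 16.3 CPM, a log2 ratio of 0.60 (-0.04 to 1.27) for TAC over Sham. At 1000 UMIs per barcode an Acta2 UMI was seen in 1.70% (0.779 to 3.20) of TAC+ART, 3.81% (2.19 to 6.11) of TAC and 0.690% (0.142 to 2.002) of Sham pericytes, against 1.60%, 1.26% and 0.661% of the endothelial gate; unthinned, 7.74%, 10.2% and 4.14% of pericytes had one. Des, the intermediate filament desmin, had 132, 248 and 126 CPM, a log2 ratio of 0.98 (0.76 to 1.20) for TAC over Sham, and had nearly the same levels in other barcodes, 135, 219 and 109.9 CPM. Myocd, the coactivator of serum response factor, was the 1 gene lower by 2-fold in TAC over Sham, at 37.6, 20.3 and 43.0 CPM, and was higher in other barcodes (122, 44.1 and 161 CPM); 22 of its 87 Sham UMIs came from 1 barcode, and without the top barcode of each library it no longer passed 2-fold.

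In the basement membrane list 22 of 25 genes were measured and none differed by 2-fold, with median log2 ratios of 0.11 in TAC against Sham and 0.05 in TAC+ART against TAC. Of all genes 4.43% were higher and 1.84% lower in the first comparison, and 1.22% and 0.981% in the second. In both comparisons the interval lay above 0 for 8 of the 22 and below 0 for 7. Col4a1, a chain of the type IV collagen network, had 378 CPM in TAC+ART pericytes, 579 CPM in TAC and 297 CPM in Sham, a log2 ratio of 0.96 (0.82 to 1.11) for TAC over Sham, and 352, 714 and 232 CPM in other barcodes. Itga7, a laminin receptor subunit, was high in pericytes and lower in TAC: it had 169 CPM in TAC+ART, 128 CPM in TAC and 215 CPM in Sham against 14.8, 9.40 and 15.6 CPM elsewhere, with a log2 ratio of -0.75 (-0.97 to -0.53) for TAC over Sham. Col5a3 had 128, 208 and 138 CPM against 39.7, 62.4 and 27.2 CPM elsewhere, with log2 ratios of 0.59 (0.37 to 0.81) in TAC against Sham and -0.70 (-0.91 to -0.49) in TAC+ART against TAC.

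Fibrillar matrix and activation genes were higher in TAC pericytes, at levels below those of the surrounding barcodes. Of 33 genes 28 were measured: 13 were higher in TAC over Sham by 2-fold and 0 lower, with a median log2 ratio of 0.94, and 5 were lower in TAC+ART over TAC and 0 higher, with a median of -0.34. Over all genes 4.43% were higher in TAC than in Sham pericytes and 0.981% lower in TAC+ART than in TAC pericytes by the same rule. Only 2 of the 28, Fn1 and Mmp14, had a TAC pericyte level at least equal to that of the other TAC barcodes. Col1a1, a chain of type I collagen, had 83.1 CPM in TAC+ART pericytes, 113 CPM in TAC and 41.0 CPM in Sham, and 218, 317 and 68.7 CPM in other barcodes. Postn, which encodes the matrix protein periostin, had 313, 456 and 222 CPM in pericytes and 207, 517 and 32.2 CPM in other barcodes, so that its TAC over Sham log2 ratio in pericytes was 1.03 (0.87 to 1.20). Cilp, a cartilage matrix protein gene of activated fibroblasts, had 35.3, 96.0 and 5.43 CPM in pericytes and 85.7, 218 and 7.78 CPM elsewhere. Timp1, an inhibitor of metalloproteinases, had 9.87, 36.1 and 0.988 CPM in pericytes, which in Sham is 2 UMIs, and a log2 ratio of 4.88 (3.29 to 8.26) for TAC over Sham.

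The same list was higher in TAC over Sham in the 4 other gates compared, with median log2 ratios of 1.49 in the endothelial, 1.53 in the fibroblast, 1.42 in the macrophage and 2.63 in the cardiomyocyte gate. The 7 fibroblast markers, which include Col1a1, had 2517 CPM in TAC+ART pericytes, 1890 CPM in TAC and 1617 CPM in Sham. Dcn had 810, 764 and 320 CPM in the same order. Members with 5 or more fibroblast marker UMIs made up 96.2%, 87.6% and 65.7%. How much of the matrix signal in pericyte barcodes is RNA of other cells was not tested.

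**Figure D3:**
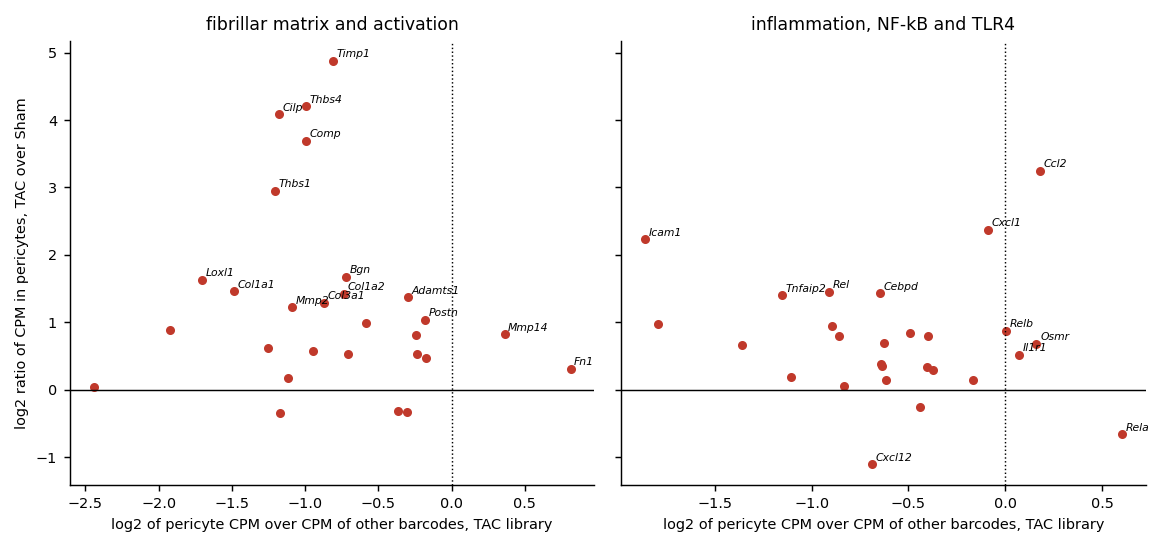
Fibrillar matrix and activation genes, and inflammation genes, in pericytes: the horizontal axis is the log2 ratio of pericyte CPM to the CPM of other barcodes in the TAC library, the vertical axis the log2 ratio of TAC over Sham in pericytes. Names are printed for members 2-fold or more apart or at least as high in pericytes as elsewhere; all measured matrix genes but Fn1 and Mmp14 lie left of 0, for example Cilp at 96.0 CPM in pericytes and 218 CPM in other TAC barcodes.

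PDGF, Notch and angiopoietin signalling genes had a median log2 ratio of 0.08 for TAC over Sham, with 24 of 30 measured. The interval lay above 0 for 3 of the 24 and below 0 for 8, and 0 were higher and 1 lower by 2-fold. By the same rule 4.43% of all genes were higher and 1.84% lower. The Notch target gene Heyl had 179 CPM in TAC+ART pericytes, 259 CPM in TAC and 201 CPM in Sham, and the Notch ligand Jag1 had 188, 205 and 196 CPM. Angpt1, the ligand through which mural cells stabilise endothelium, had 32.3, 22.1 and 50.9 CPM in pericytes, a log2 ratio of -1.20 (-1.73 to -0.70) for TAC over Sham, and was higher in other barcodes (147, 122 and 284 CPM). With a marker minimum of 8 the ratio was -0.90 and with a gate ratio of 4 it was -0.61, both under 2-fold. For TAC+ART over TAC, where 1.22% of all genes were higher by 2-fold, the median of 26 genes was 0.00. Pdgfc was higher by 2-fold, at 25.4, 12.2 and 6.42 CPM. Its ratio of 1.05 was between 0.49 and 0.92 under 5 alternatives, the lowest with a gate ratio of 4, and 0.79 without the members that had markers of other cells.

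Of the TGF-beta and BMP genes 26 of 31 were measured, with a median log2 ratio of -0.01 for TAC over Sham and 2 genes higher by 2-fold, Ltbp2 and Pmepa1, both more abundant in other barcodes. In that comparison 4.43% of all genes were higher. Pmepa1, a TGF-beta target that dampens the pathway, had 71.7 CPM in TAC+ART pericytes, 92.4 CPM in TAC and 33.1 CPM in Sham. Bmp5, a ligand of the BMP family, was largely restricted to pericytes among these barcodes: it had 165, 89.2 and 121 CPM in pericytes and 2.44, 1.19 and 3.06 CPM elsewhere. Its log2 ratio was -0.44 (-0.72 to -0.16) in TAC against Sham and 0.89 (0.65 to 1.14) in TAC+ART against TAC, under the 2-fold rule, and a Bmp5 UMI was seen in 12.6%, 7.38% and 10.3% of pericytes thinned to 1000 UMIs, against 0.285%, 0.093% and 0.0826% of the endothelial gate.

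Among all genes ranked by a rule of size for those at least as high in pericytes as elsewhere, several more were higher in TAC and lower in TAC+ART. Errfi1 (chr4:150853919-150868892, plus strand), a feedback inhibitor of the EGF receptor, had 225 CPM in TAC+ART pericytes, 573 CPM in TAC and 202 CPM in Sham, against 40.8, 123 and 62.2 CPM in other barcodes. Its log2 ratio was 1.50 (1.34 to 1.67) in TAC against Sham and -1.35 (-1.49 to -1.21) in TAC+ART against TAC, and a UMI of it was seen in 106 of 530, 152 of 420 and 78 of 435 thinned pericytes (51.3%, 71.9% and 47.8% of them unthinned), against 1.48%, 3.77% and 2.23% of the endothelial gate. In the fibroblast gate the corresponding log2 ratios were 0.97 and -1.99.

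Pawr, a pro-apoptotic regulator of transcription and the actin cytoskeleton, followed the same order, with 86.5 CPM in TAC+ART pericytes, 209.6 CPM in TAC and 78.0 CPM in Sham, and log2 ratios of 1.42 (1.16 to 1.69) and -1.27 (-1.51 to -1.04). Rhoj, a small GTPase of vascular cells, had 274, 545 and 227 CPM in pericytes but 426, 538 and 431 CPM in other barcodes, and met the level condition of the ranking only in TAC. Fras1, an extracellular matrix protein gene, was almost absent elsewhere: it had 35.3, 57.7 and 23.2 CPM in pericytes and 2.18, 2.62 and 4.21 CPM in other barcodes, with a log2 ratio of 1.30 (0.82 to 1.83) for TAC over Sham. Cycs, Pgam2, Psmb4 and Hspe1, the other genes in the TAC over Sham ranking, were at nearly the level of other barcodes, for example Cycs (cytochrome c) at 86.9, 138 and 51.4 CPM in pericytes and 96.7, 138 and 60.0 CPM elsewhere.

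Fam124a and Arrdc3 were ranked for TAC+ART over TAC. Fam124a had 45.5 CPM in TAC+ART pericytes, 99.2 CPM in TAC and 44.95 CPM in Sham, while other barcodes had 46.1, 43.5 and 49.9 CPM, so that the level condition held only in TAC, and its TAC over Sham log2 ratio was 1.14 in pericytes, -0.30 in the endothelial gate and -0.19 in the fibroblast gate. Arrdc3, an arrestin-domain protein gene that acts on beta-adrenergic receptors, had 25.8, 54.5 and 33.1 CPM, a log2 ratio of -1.07 (-1.53 to -0.64) for TAC+ART over TAC, against 0.21 in the endothelial and 0.30 in the fibroblast gate. Gm12940, which overlaps Sfpq and Zmym1, was ranked as well.

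**Figure D4:**
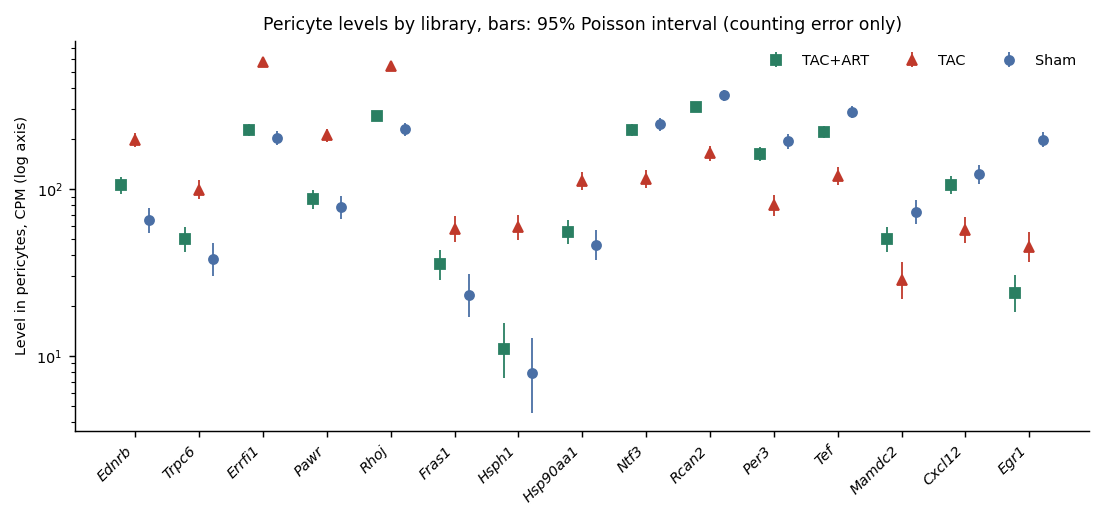
CPM of 15 named genes in pericytes of the TAC+ART, TAC and Sham libraries, with 95% Poisson intervals for counting error; the vertical axis is a log axis. Ednrb, Trpc6, Errfi1, Pawr, Rhoj and Fras1 have their highest value in TAC, and Ntf3, Rcan2, Per3, Tef, Mamdc2 and Cxcl12 their lowest.

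Genes lower in TAC pericytes than in Sham were led by Egr1, an immediate early transcription factor. It had 23.9 CPM in TAC+ART pericytes, 45.1 CPM in TAC and 198 CPM in Sham, against 18.8, 55.2 and 57.5 CPM in other barcodes, and its log2 ratio was -2.13 (-2.46 to -1.81) in TAC against Sham and -0.91 (-1.39 to -0.45) in TAC+ART against TAC. Of thinned pericytes 3.21%, 6.19% and 14.9% had an Egr1 UMI (8.68%, 13.8% and 38.2% unthinned), against 0.798%, 3.91% and 8.01% of the endothelial gate. The TAC over Sham ratio was -1.22 in the endothelial gate and 0.70 in the fibroblast gate.

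Mthfd1l, a mitochondrial folate enzyme, had 115 CPM in TAC+ART pericytes, 52.3 CPM in TAC and 148 CPM in Sham, with log2 ratios of -1.50 (-1.82 to -1.19) in TAC against Sham and 1.13 (0.82 to 1.45) in TAC+ART against TAC. The ratio of TAC over Sham was -1.38 in the endothelial and -1.57 in the fibroblast gate. Mamdc2, an extracellular proteoglycan gene, had 50.1, 28.4 and 73.1 CPM in pericytes and 17.8, 9.14 and 10.7 CPM in other barcodes; the small smooth muscle gate had 565, 972 and 399 CPM and 2, 1 and 4 pericytes also met that gate; their part in the result was not tested. Cirbp, a cold-inducible RNA-binding protein gene, was low in TAC in all gates, with 39.9, 22.5 and 54.8 CPM in pericytes and log2 ratios of TAC over Sham of -1.27 in pericytes, -0.90 in the endothelial, -1.20 in the fibroblast, -1.19 in the macrophage and -1.12 in the cardiomyocyte gate. Zfp804b, an identity gene, had 374, 219 and 466 CPM, a log2 ratio of -1.09 (-1.25 to -0.93) for TAC over Sham, and did not pass 2-fold when each pericyte was weighted equally. The uncharacterised 4930517O19Rik, Gm10687 and Gm39090 were also in this ranking, and overlap Klf12, Mcam and Bcl7c, whose reads may be shared.

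Genes ranked as higher in TAC+ART than in TAC pericytes included a growth factor, nuclear receptor, ion channel and signalling genes. Ntf3, the growth factor neurotrophin-3, had 226 CPM in TAC+ART pericytes, 115 CPM in TAC and 245 CPM in Sham, against 83.5, 58.1 and 93.2 CPM elsewhere, with log2 ratios of -1.09 (-1.31 to -0.87) in TAC against Sham and 0.97 (0.76 to 1.19) in TAC+ART against TAC. Rcan2, a regulator of calcineurin, had 309, 164 and 365 CPM, and Rarb, a retinoic acid receptor, had 77.8, 37.0 and 70.6 CPM. Cfap54, a cilium protein gene, had 96.0, 50.9 and 98.3 CPM in pericytes and 3.29, 2.65 and 3.83 CPM elsewhere. Wnt5b, a ligand of the Wnt family, had 52.4, 26.1 and 40.0 CPM, and the potassium channel gene Kcnd3 had 50.1, 24.3 and 34.1 CPM.

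Csmd1 had the highest ratio of TAC+ART over TAC in this ranking, but 260 of its 340 TAC+ART UMIs lay in 1 barcode; it had 129 CPM in TAC+ART pericytes, 22.1 CPM in TAC and 2.96 CPM in Sham, and 30.5 CPM in TAC+ART without that barcode. The non-coding Gm29683 had 124, 64.5 and 86.0 CPM in pericytes and 7.65, 3.02 and 9.75 CPM elsewhere.

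Between TAC+ART and Sham the ranked genes that were higher were Csmd1, 1700023F02Rik, Selenok, Ndufb11 and Arl6ip1. The non-coding 1700023F02Rik was nearly restricted to pericytes, with 78.2 CPM in TAC+ART, 49.1 CPM in TAC and 32.1 CPM in Sham against 0.651, 0.198 and 0.383 CPM elsewhere, a log2 ratio of TAC+ART over Sham of 1.28. Selenok, an endoplasmic reticulum selenoprotein gene, had 66.4, 60.4 and 35.1 CPM, near its level in other barcodes. Lower than in Sham were Egr1, Dalrd3, Fscn1, Gm37376 and Pakap: Fscn1, which bundles actin, had 27.7, 27.5 and 56.8 CPM, with ratios just past 2-fold that several alternatives lost, and Pakap had 36.4, 39.7 and 68.2 CPM in pericytes against 5.86, 6.69 and 8.93 CPM elsewhere. Gm37376 overlaps Malat1, whose reads it may hold.

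Several named heat shock genes were higher in TAC than in Sham pericytes. Hsph1, an Hsp110 family chaperone, had 11.01 CPM in TAC+ART pericytes, 59.0 CPM in TAC and 7.90 CPM in Sham, with log2 ratios of 2.86 (2.15 to 3.75) in TAC against Sham and -2.40 (-3.06 to -1.83) in TAC+ART against TAC; other barcodes had 19.9, 58.6 and 14.6 CPM. The TAC over Sham ratio of Hsph1 was 2.16 in the endothelial, 1.93 in the fibroblast, 1.72 in the macrophage and 2.42 in the cardiomyocyte gate. Hsp90aa1, the inducible Hsp90, had 55.4, 112 and 46.4 CPM in pericytes, the co-chaperone Dnaja1 had 59.2, 151 and 65.7 CPM, and the small chaperone Hspb1 had 28.5, 71.7 and 12.8 CPM. Of 32 immediate early and heat shock genes 20 were measured: 7 were higher in TAC over Sham by 2-fold and 1, Egr1, lower, with a median log2 ratio of 0.47; for TAC+ART over TAC 0 were higher and 5 lower, with a median of -0.59. Over all genes 4.43% were higher in TAC than in Sham and 0.981% lower in TAC+ART than in TAC. For TAC over Sham 4 of the 20 were at least as high in pericytes as elsewhere in the library with the higher value. The list's median for TAC over Sham was 0.61 in the endothelial, 1.01 in the fibroblast, 0.42 in the macrophage and 1.60 in the cardiomyocyte gate, and for TAC+ART over TAC -0.82, -0.70, -0.63 and -1.24.

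The 250 bases before the annotated start of Hsph1 and Hspb1 are shown because both genes move in this list and both windows hold a heat shock element core. They are RefSeq sequences of GRCm38.p6, 5′ to 3′ on the gene's strand, Hsph1 from chr5:149636337-149636586 (minus strand) and Hspb1 from chr5:135887669-135887918 (plus strand). Capitals mark GAANNTTC or TTCNNGAA, each of which reads the same on both strands.
Hsph1: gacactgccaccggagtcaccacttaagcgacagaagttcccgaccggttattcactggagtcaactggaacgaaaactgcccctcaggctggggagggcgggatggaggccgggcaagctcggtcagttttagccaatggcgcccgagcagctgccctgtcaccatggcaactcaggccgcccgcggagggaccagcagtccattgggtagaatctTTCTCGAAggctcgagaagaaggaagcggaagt
Hspb1: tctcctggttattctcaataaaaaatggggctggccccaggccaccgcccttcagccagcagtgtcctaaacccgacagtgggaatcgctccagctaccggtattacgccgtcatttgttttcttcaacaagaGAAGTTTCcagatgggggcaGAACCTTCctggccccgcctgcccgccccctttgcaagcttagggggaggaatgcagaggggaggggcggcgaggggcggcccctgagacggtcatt
The motif begins at base -33 in Hsph1 and at bases -117 and -97 in Hspb1, counted from the start site. Of 8 heat shock genes 5 had an entry in the RefSeq table, and 4 of these 5 held GAANNTTC or TTCNNGAA, as did 14.55% of all 27025 genes in the table. A match is a description of these letters and no measure of factor binding.

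Clock genes lay mostly on one side: of 19 genes 16 were measured for TAC over Sham, 14 had a ratio below 0, 5 were lower by 2-fold and 1 higher, and the median log2 ratio was -0.85. Of all genes 1.84% were lower by 2-fold in that comparison. The core clock is a loop in which Arntl and Clock activate Per and Cry genes and the output factors Dbp, Tef and Hlf, whose products feed back. Cry1, a repressor of the loop, had 42.9 CPM in TAC+ART pericytes, 17.1 CPM in TAC and 54.3 CPM in Sham, with log2 ratios of -1.65 (-2.24 to -1.12) in TAC against Sham and 1.31 (0.78 to 1.89) in TAC+ART against TAC. Per3 had 163, 79.8 and 193 CPM, with log2 ratios of -1.27 (-1.54 to -1.01) and 1.03 (0.77 to 1.29); the second was 0.94, under 2-fold, without the members that had markers of other cells. Arntl, the activator, was the gene that was higher, at 3.42, 17.6 and 5.93 CPM, with a log2 ratio of 1.53 (0.61 to 2.64) for TAC over Sham.

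Of the output factors Tef and Dbp were lower by 2-fold in TAC than in Sham, and Hlf, at a log2 ratio of -0.96, was not. Tef had 219 CPM in TAC+ART pericytes, 119.9 CPM in TAC and 288 CPM in Sham, a log2 ratio of -1.27 (-1.48 to -1.06) for TAC over Sham. Dbp had 131, 83.8 and 180.3 CPM, Hlf had 253, 169 and 331 CPM, and Ciart, a further repressor, had 14.4, 8.11 and 20.7 CPM. For TAC+ART over TAC, where 1.22% of all genes were higher by 2-fold, 15 clock genes were measured. Their median was 0.58, with 2 higher (Cry1 and Per3) and 0 lower by 2-fold. The other gates had the same direction, with medians for TAC over Sham of -0.97 in the endothelial, -1.24 in the fibroblast, -0.80 in the macrophage and -0.99 in the cardiomyocyte gate, and for TAC+ART over TAC of 0.76, 0.78, 1.20 and 0.50. Clock genes change with the hour, each group is 1 library, and the sources used here do not give the hour of collection, so hour and treatment cannot be told apart.

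**Figure D5:**
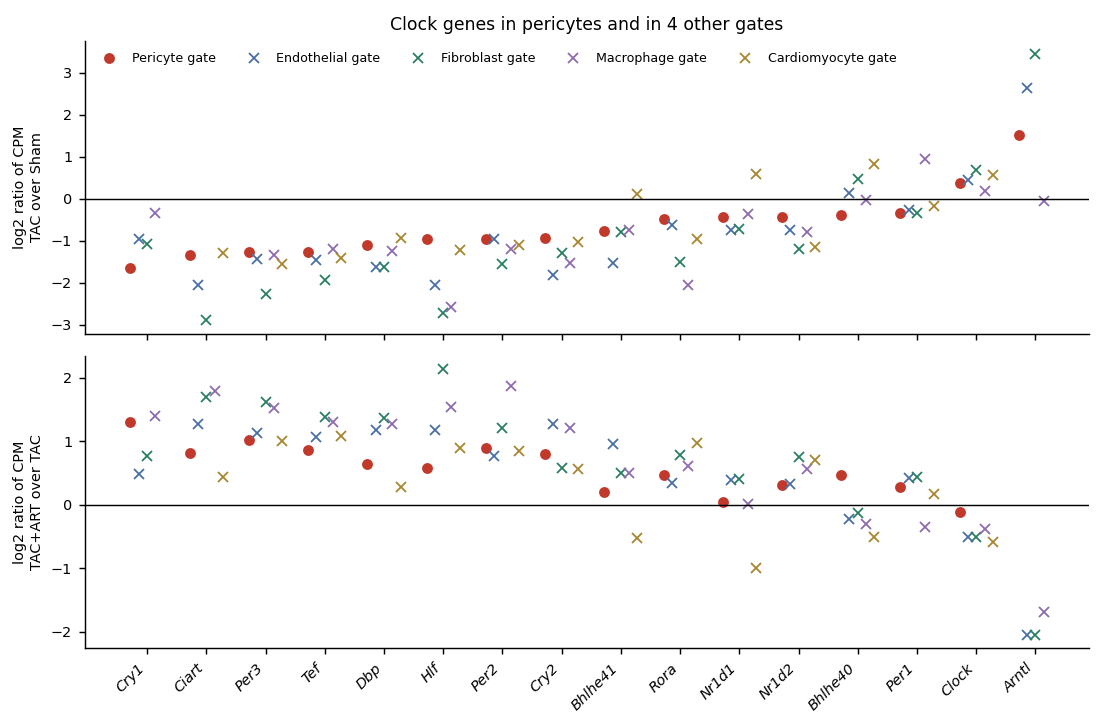
Log2 ratios of 16 clock genes in pericytes and in the endothelial, fibroblast, macrophage and cardiomyocyte gates, TAC over Sham in the upper panel and TAC+ART over TAC in the lower. In pericytes Cry1 lies at -1.65 and Arntl at 1.53 in the upper panel, and the medians of the other gates lie between -1.24 and -0.80 there; pericyte Arntl is missing from the lower panel because it had under 50 UMIs.

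Windows of 250 bases before the start are shown for the 4 of the 5 clock genes lower by 2-fold in TAC pericytes whose window held a searched motif; the window of Dbp, the fifth, held neither. Capitals mark CACGTG, the E-box bound by Clock and Arntl, in Cry1 (chr10:85185055-85185304, minus strand), Tef (chr15:81802423-81802672, plus strand) and Ciart (chr3:95882229-95882478, minus strand), and TTATGTAA, the D-box bound by Dbp, Tef and Hlf, in Per3 (chr4:151044666-151044915, minus strand). The sequences are RefSeq, GRCm38.p6, 5′ to 3′ on the gene's strand.
Cry1: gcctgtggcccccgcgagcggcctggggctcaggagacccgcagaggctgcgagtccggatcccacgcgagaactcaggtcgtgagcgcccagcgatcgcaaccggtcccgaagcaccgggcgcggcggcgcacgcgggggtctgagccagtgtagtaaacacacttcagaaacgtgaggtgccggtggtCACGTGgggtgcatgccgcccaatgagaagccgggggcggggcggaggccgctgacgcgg
Tef: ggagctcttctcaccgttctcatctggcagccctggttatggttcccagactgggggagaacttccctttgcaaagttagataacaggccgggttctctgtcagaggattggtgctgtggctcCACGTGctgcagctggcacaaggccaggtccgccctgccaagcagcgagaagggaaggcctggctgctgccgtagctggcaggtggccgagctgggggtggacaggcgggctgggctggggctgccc
Ciart: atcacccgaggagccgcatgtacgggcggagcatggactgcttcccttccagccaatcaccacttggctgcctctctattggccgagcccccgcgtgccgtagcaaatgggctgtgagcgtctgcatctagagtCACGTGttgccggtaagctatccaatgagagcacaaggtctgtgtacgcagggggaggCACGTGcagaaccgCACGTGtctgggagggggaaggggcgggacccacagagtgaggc
Per3: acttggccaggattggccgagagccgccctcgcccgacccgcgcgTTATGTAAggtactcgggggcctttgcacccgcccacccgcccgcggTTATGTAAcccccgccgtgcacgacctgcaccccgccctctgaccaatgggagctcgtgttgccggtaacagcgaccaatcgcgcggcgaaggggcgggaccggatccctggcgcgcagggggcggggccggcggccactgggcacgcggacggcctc
CACGTG reads the same on both strands and begins at base -60 in Cry1, at -127 in Tef and at -116, -58 and -44 in Ciart; TTATGTAA was searched on both strands and begins at -205 and -158 in Per3. Of 16 clock genes with an entry 5 held CACGTG (Per1, Cry1, Tef, Ciart and Bhlhe41), as did 6.86% of all genes in the table, and 1 held TTATGTAA, as did 0.977% of all genes. No window of the list held both motifs, and a match is again a description only.

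Most inflammation, NF-kB and TLR4 genes had ratios above 0 in TAC over Sham. Of 39 genes 27 were measured, 6 were higher in TAC over Sham by 2-fold and 1 lower, with a median log2 ratio of 0.68; for TAC+ART over TAC 29 were measured, 0 were higher and 5 lower, with a median of -0.41. Over all genes 4.43% were higher and 1.84% lower in TAC than in Sham, and 0.981% lower in TAC+ART than in TAC. Only 6 of the 27 were at least as high in pericytes as in other barcodes of the library where they were higher. The list's median for TAC over Sham was 0.65 in the endothelial, 0.33 in the fibroblast, 0.30 in the macrophage and 0.88 in the cardiomyocyte gate, and for TAC+ART over TAC -0.49, -0.47, -0.20 and -0.24. Ccl2, a chemokine that attracts monocytes, had 7.21 CPM in TAC+ART pericytes, 30.2 CPM in TAC and 2.96 CPM in Sham, a log2 ratio of 3.24 (2.15 to 4.85) for TAC over Sham, and in other barcodes 13.6, 26.7 and 16.6 CPM. Cxcl1, a neutrophil chemokine, had 7.97, 26.6 and 4.94 CPM, and the adhesion receptor Icam1 had 8.73, 31.1 and 6.42 CPM. Nfkbia, the inhibitor that NF-kB induces, had 47.8, 84.3 and 48.4 CPM, with log2 ratios of 0.80 (0.44 to 1.17) and -0.82 (-1.16 to -0.48).

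The macrophage markers in pericytes, at 376 CPM in TAC+ART, 447 CPM in TAC and 143 CPM in Sham, moved with this list between TAC and Sham, and their part in it was not tested. Cxcl12, a further chemokine, went the other way: it had 106 CPM in TAC+ART pericytes, 56.8 CPM in TAC and 123 CPM in Sham. Its log2 ratio was -1.11 (-1.43 to -0.79) in TAC against Sham and 0.90 (0.59 to 1.21) in TAC+ART against TAC. Thinned pericytes with a Cxcl12 UMI made up 10.4% in TAC+ART, 5.48% in TAC and 10.8% in Sham. The endothelial gate had higher shares, 23.6%, 18.3% and 22.5%, also lowest in TAC, so the low TAC value was not confined to pericytes. In the same order the shares were 6.24%, 5.10% and 3.89% in the fibroblast gate and 2.81%, 2.53% and 3.70% in the macrophage gate. Tlr4, the receptor for bacterial lipopolysaccharide, had 66.8, 74.8 and 57.3 CPM in pericytes and 127, 117 and 95.7 CPM elsewhere. Its co-receptor Ly96 had 17.1, 18.5 and 11.4 CPM, with a log2 ratio of 0.69 (-0.07 to 1.51) in TAC against Sham and -0.12 (-0.76 to 0.53) in TAC+ART against TAC, both intervals spanning 0. Cd14, which hands lipopolysaccharide to them, had 5.69, 8.11 and 1.98 CPM, too few UMIs for the comparison.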

How the data were processed

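The authors deposited a matrix of raw UMI counts (genes by barcodes, 29994 genes) for each of the 3 libraries, made with Cell Ranger and mm10 per the submitters' processing notes, which also name Seurat; the sources used here give no versions and no rule by which barcodes were kept. From these counts the pericyte rule was applied to every barcode as deposited, UMIs of members were summed per gene and library, and CPM and log2 ratios with 0.5 UMIs added were computed for genes with at least 50 UMIs in both libraries together, the genes of the rule left out. Other cell types were gated by their own markers, and a smooth muscle, endothelial, fibroblast, macrophage and cardiomyocyte gate served for comparison. Named genes needed 100 UMIs in both libraries together, 50 CPM in the higher one and a pericyte level there at least equal to that of all other barcodes; the 10 highest and 10 lowest ratios were taken (5 for TAC+ART over Sham), without mitochondrial, ribosomal, haemoglobin and sex-linked genes and Malat1, plus up to 4 members of each list per comparison, the TLR4 receptor complex genes and 15 identity genes, of which 2 are not reported here. No doublet caller was run. In an alternative, members with 5 or more UMIs of endothelial, macrophage or lymphocyte markers were left out. Fibroblast and cardiomyocyte markers were not used for that. Shares of cells with a UMI were taken after thinning each barcode to 1000 UMIs, which left out 0 pericytes. Gene positions are GENCODE M21 on GRCm38, with 28522 of 29994 symbols matched. The members and gene lists were chosen with earlier results of these data known. The ratio and its interval were tested on simulated counts drawn independently from Poisson distributions, which the interval itself assumes. UMIs gathered in 1 barcode were not simulated, so that test does not measure how well the interval holds in these data. Python 3.11.15, numpy 2.4.6, pandas 2.3.3, scipy 1.17.1 and matplotlib 3.10.9 were used.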

Additional observations from a re-analysis of the deposited data

Results flagged for a closer look

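A few genes went opposite ways by 2-fold or more in pericytes and in another gate, with 1 library per group and no test of the difference. The log2 ratio of TAC over Sham was 3.24 in pericytes and -1.12 in the macrophage gate for Ccl2, 1.58 and -1.48 for the endothelin receptor Ednrb, 1.42 and -1.03 for Pawr, and 1.27 and -1.05 for the guidance ligand Slit2, whose pericyte ratio was 0.49 among barcodes of at most 8000 UMIs. For Cxcl12 it was -1.11 in pericytes and 1.36 in the cardiomyocyte gate, and for the actin-bundling Fscn1 it was -1.04 in pericytes and 1.16 in the fibroblast gate; the pericyte ratio of Fscn1 was -0.98 with a marker minimum of 3 and -0.99 with 5 UMIs added. The log2 ratio of TAC+ART over TAC was 2.53 in pericytes and -1.14 in the fibroblast gate for Csmd1, most of whose pericyte UMIs lay in 1 barcode, and 1.35 in pericytes and -1.15 in the endothelial gate for the potassium channel Kcnq5, which was at 0.99 in pericytes when each was weighted equally. The differences between gates were not tested.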

How the results depend on the processing

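The share ratios kept their direction under every alternative gate, depth limit and denominator tried. The ratio to the excluding genes was only raised, from 2 to 4, where the log2 ratio of TAC over Sham was -1.14. It was not lowered and no excluding gene was dropped, so the part of these genes in the shares was not tested. Numbers of genes past 2-fold depended on the filter: with 20 UMIs in both libraries together 671 were higher and 461 lower for TAC over Sham, 336 and 258 for TAC+ART over TAC, and 438 and 237 for TAC+ART over Sham; with 200 UMIs the numbers were 171 and 29, 9 and 17, and 56 and 1; with only genes at least as high in pericytes as in other barcodes they were 69 and 89, 53 and 32, and 26 and 38. The last of these filters depends on the direction of each ratio, so its numbers are a description only. With 5 UMIs added to each sum, 70 genes were higher in TAC+ART over TAC. Under other gates, scalings and weights, 102 to 116 of 117 ratios past 2-fold of named genes remained past it. Csmd1 reversed, to -1.97 for TAC+ART over TAC with a gate ratio of 4; 260 of its 340 TAC+ART UMIs lay in 1 barcode, which did not meet that stricter ratio. Hsp90aa1 (TAC+ART over TAC) was below 2-fold under both other scalings. Leaving out members with markers of other cells and leaving out the top barcode of each gene were alternatives chosen after seeing the data: Trpc4, Pde3b and Dalrd3 (TAC over Sham) and Per3, Hsp90aa1 and Eln among others (TAC+ART over TAC) no longer passed 2-fold without the first, and Myocd, Adra1a and Eln without the second. The doublet rule fixed earlier left 0 members, since every pericyte had 3 or more UMIs of another class, and gave no value. No paired analysis was possible because each group has 1 library, and no library could be left out.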

Other observations

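Endoplasmic reticulum and metal-stress genes had medians above 0 in TAC over Sham pericytes, as they did in the other gates, with most members under their level in other barcodes; over all genes 4.43% were higher by 2-fold. Of 25 endoplasmic reticulum stress genes 20 were measured, 5 were higher in TAC over Sham by 2-fold and 0 lower, with a median log2 ratio of 0.56, against 0.24 in the endothelial, 0.67 in the fibroblast, 0.49 in the macrophage and 0.59 in the cardiomyocyte gate. Calr, the calcium-binding chaperone calreticulin, had 74.0 CPM in TAC+ART pericytes, 113 CPM in TAC and 47.9 CPM in Sham. Of 27 metallothionein and stress protein genes 20 were measured and 6 were higher, with a median of 0.58, against 0.66, 0.82, 0.91 and 0.91 in those gates; the metal-binding Mt1 had 60.0, 110.0 and 28.7 CPM. Zbtb16, a glucocorticoid-responsive zinc-finger gene of that list, went another way, with 699 CPM in TAC+ART pericytes, 383 CPM in TAC and 312 CPM in Sham, a log2 ratio of 0.87 (0.75 to 0.99) for TAC+ART over TAC. Hypoxia and glycolysis genes had a median of 0.27 over 23 of 28 genes, with Gapdh higher by 2-fold.

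Interferon response genes were measured for 13 of 24 in TAC over Sham, with a median log2 ratio of 0.51 and 2 higher by 2-fold. There 4.43% of all genes were higher. In TAC+ART over Sham 16 were measured, with a median of 0.66 and 4 higher, where 1.82% of all genes were higher. In the endothelial, fibroblast, macrophage and cardiomyocyte gates the medians were -0.25, 0.13, -0.30 and 1.71 for TAC over Sham and 0.32, 0.68, 0.32 and 1.28 for TAC+ART over Sham. B2m, the light chain of MHC class I, had 234 CPM in TAC+ART pericytes, 202 CPM in TAC and 109 CPM in Sham, and 414, 355 and 214 CPM in other barcodes; none of the measured interferon genes was at least as high in pericytes as elsewhere. Guidance and cell contact genes had a median of -0.22 over 22 of 29 genes for TAC over Sham, with Cdh11 and Slit2 higher by 2-fold. In that comparison 4.43% of all genes were higher. Cell cycle genes were scarcely detected, with 2 of 27 measured for TAC over Sham and 4 for TAC+ART over TAC.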
